A study of Arabidopsis thaliana with 4 samples.

Results

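The regions precipitated with ANAC060 from Arabidopsis thaliana seedlings grown on 6% glucose were described from the deposited list of peaks. All 2859 peaks of that list lay on the 5 nuclear chromosomes and were used, out of 7014 nuclear peaks in the 2 lists of the series. ANAC060 is a NAC-domain transcription factor, and the precipitate came from a line that carried 35S:ANAC060-GFP in the anac060 mutant (Col-0 background), with a polyclonal anti-GFP antibody. The control was input DNA without antibody from wild-type Col-0 seedlings on 6% glucose, so the transgene was in the precipitate and not in the control. Both libraries came from whole 10-d-old seedlings kept in constant light at 22 °C after 3 d of stratification. The 35S promoter is active in nearly all cells, so the fusion was not limited to the cells that normally make ANAC060. Each side was 1 library, so no value has a replicate check, read depth was unknown, and a precipitate from untagged plants was not used here.

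NAC factors form a large plant family of DNA-binding proteins, many of which act in stress responses, senescence and development. ANAC060 has been linked to the sugar response of seedlings through signalling by abscisic acid (ABA), and the protein is also known in a form tethered to membranes. In ABA signalling, receptors of the PYR and PYL family bind the hormone and then block clade A protein phosphatases 2C, which otherwise hold SnRK2 kinases inactive. Chromatin immunoprecipitation with sequencing counts DNA fragments held by the antibody against those of the input, and a peak is a stretch where the precipitate is in excess.

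The peaks covered 5.83 Mb. Their median width was 1673 bp, and the middle 80% lay between 1416 and 2827 bp. Each peak carries the authors' score, whose range fits the older MACS scale of the negative log10 of a p-value multiplied by 10, with a ceiling of 3100. Scores started at 30.02, next to the calling threshold, and the 5 lowest were 30.02, 30.02, 30.03, 30.05 and 30.06. The median score was 57.65. Low scores prevailed: 712 peaks (24.9%) were under 40, 674 (23.6%) reached 100, 97 reached 300 and 18 reached 1000. Wider peaks had higher scores, with a Spearman rho of 0.64 across the 2859 peaks as a description, and median width was 1446 bp in the lowest and 2526 bp in the highest 20% of scores.

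The highest scores were partly those of a few unusual regions. Of the 11 peaks at the ceiling, 7 lay on chromosome 2 between 3 and 4 Mb, a stretch known to carry inserted mitochondrial DNA. That window held 15 peaks and 4.40% of the covered length, including the widest peak of the list (98384 bp). The 15 windows of 1 Mb with fewer than 100 protein-coding genes held another 46 peaks, with a median score of 135 against 57.33 in the other windows. Together these were 61 peaks, among them 18 of the 37 peaks with a score of 500 or more (48.6%). Copy number was not examined, and its part in these scores was not tested.

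**Figure D1:**
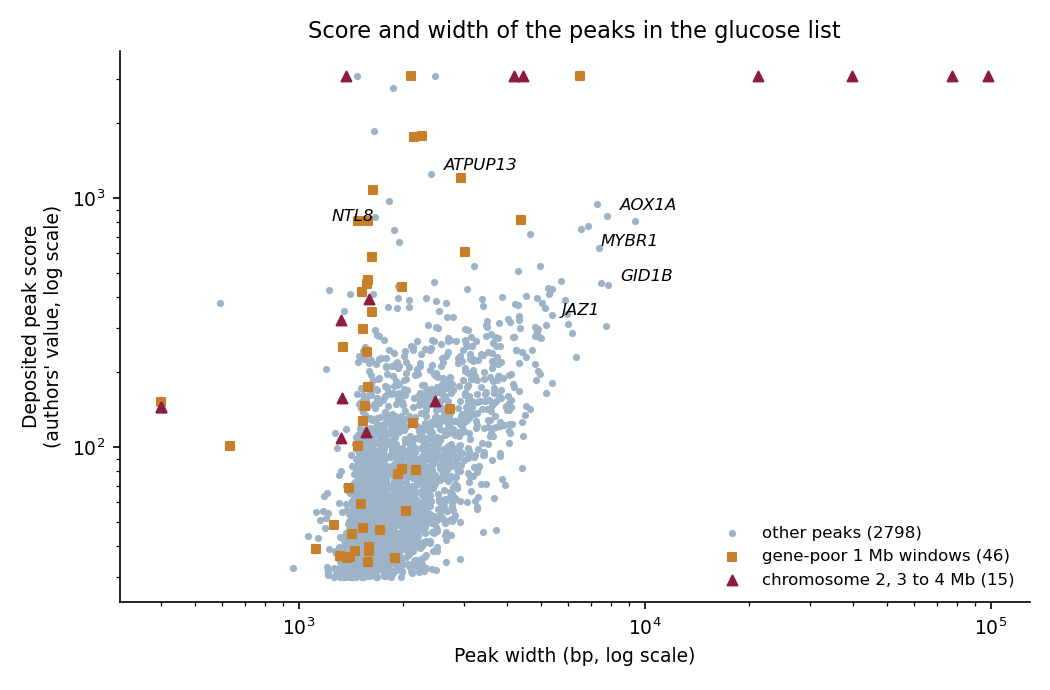
Width (bp, log scale) and deposited score (log scale) of each of the 2859 peaks, with those of chromosome 2 from 3 to 4 Mb as triangles, those of gene-poor windows as squares and all others as dots. The 4 peaks wider than 20 kb are all on the chromosome 2 window and at the ceiling of 3100, while GID1B, AOX1A, MYBR1 and JAZ1 lie at the wide, high end of the other peaks.

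Peak number varied with position along the chromosomes. The list held between 22.5 and 25.5 peaks per Mb on each chromosome, and between 102 and 110 per 1000 protein-coding genes, so whole chromosomes differed little. Within them, the 10 windows at chromosome ends held 449 peaks, or 18.8 per 100 genes. The 96 windows between them held 2364 peaks, or 9.70 per 100 genes, and the 15 gene-poor windows held 6.61 per 100 genes. The window with the most peaks was the upper end of chromosome 5 (26 to 27 Mb), with 83 peaks for 284 genes, and the next by number of peaks was chromosome 2 from 18 to 19 Mb, with 63 peaks for 305 genes.

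The same gradient stood in the genes. A gene was counted as having a peak where a peak touched, by at least 1 bp, the 1 kb beside either end of it, and by this rule 4880 of 27444 nuclear protein-coding genes had one (17.8%). Outside the doubtful windows, 967 of 2903 genes within 1 Mb of a chromosome end had a peak (33.3%). The share was 21.1% at 1 to 2 Mb, 22.7% at 2 to 4 Mb, 17.1% at 4 to 6 Mb, 13.4% at 6 to 8 Mb, 12.3% at 8 to 10 Mb and 7.64% farther in. With a score of 100 or more the shares ran from 10.9% within 1 Mb to 1.61% beyond 10 Mb, against 4.89% (1342 genes) over all protein-coding genes. Median scores of the peaks differed less, at 63.97 within 1 Mb and 52.12 beyond 10 Mb.

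Of the 10 chromosome ends, 9 had a share above that of all genes. It was highest at the upper ends of chromosome 5 (133 of 290 genes, 45.9%) and chromosome 2 (127 of 293, 43.3%). The lower end of chromosome 2, beside which an array of ribosomal RNA genes is known, was the exception, with 25 of 234 genes (10.7%). At the lower end of chromosome 4, which also lies next to such an array, the share was 24.9%. Coverage of the input along the chromosomes was not used here, and its part in the gradient was not tested.

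**Figure D2:**
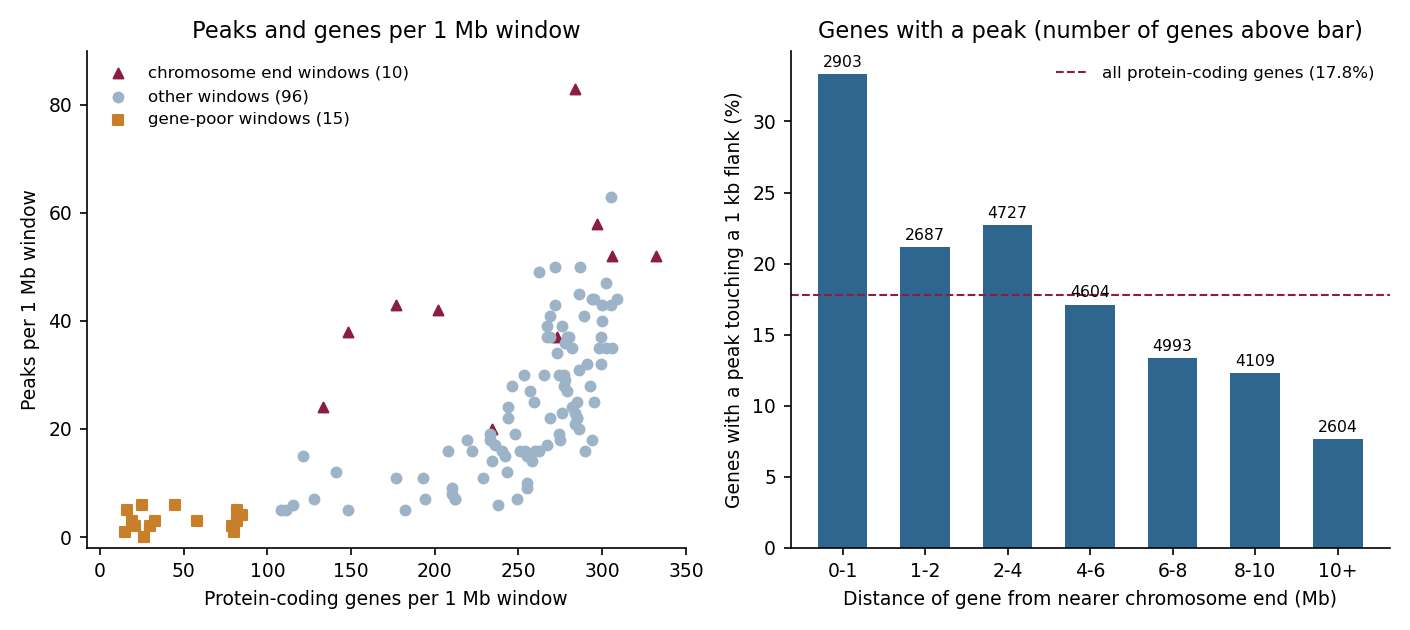
Left, peaks against protein-coding genes in each 1 Mb window, for windows at chromosome ends (triangles), other windows (dots) and gene-poor windows (squares). Right, the share of protein-coding genes with a peak by distance from the nearer chromosome end, with the number of genes above each bar and the share of all genes (17.8%) as a dashed line. Windows with similar numbers of genes range widely in peaks, and the share of genes is highest within 1 Mb of an end (33.3%) and lowest beyond 10 Mb (7.64%).

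Peak centres gathered at the ends of genes. A centre lay within 500 bp of an end of a protein-coding gene, inside or outside it, for 2016 peaks (70.5%), whereas 35.3% of all nuclear bases do, and the median distance was 258 bp. The 250 bp just inside genes held 713 centres (24.9% of centres, against 11.7% of bases), and the 250 bp just outside held 689 (24.1% of centres, against 7.77% of bases). Deeper in genes the order turned, with 58 centres (2.03%) at 1000 to 1499 bp from an end inside genes, against 8.37% of bases.

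By class, 1390 centres lay in a protein-coding gene (48.6%, exact 95% binomial interval 46.8 to 50.5), against 54.1% of nuclear bases. The 1 kb beside genes held 1223 centres (42.8%, 41.0 to 44.6), against 20.4% of bases. Other annotated genes held 46 (1.61%, against 8.63% of bases), and the remaining 200 (7.0%) were farther out, against 16.9% of bases. These intervals cover counting error alone, and the gene table used gives no strand, so starts and ends of genes cannot be told apart.

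Proximity to gene ends was weaker among the strongest peaks. With the peaks in 5 equal groups from low to high score, 71.9%, 78.2%, 76.2%, 68.7% and, in the highest group, 57.7% of centres were within 500 bp of a gene end. That highest group also had the most centres far from any gene (10.7%, against 5.25% to 7.34% in the others). Its peaks were also the widest. A peak most often had 2 protein-coding genes within reach (1394 peaks, 48.8%), while 764 had 1, 439 had 3, 97 had 4 or more and 165 had none. Of the genes with a peak, 87.1% shared it with another gene, so a named gene is the one near a peak and not a known target.

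**Figure D3:**
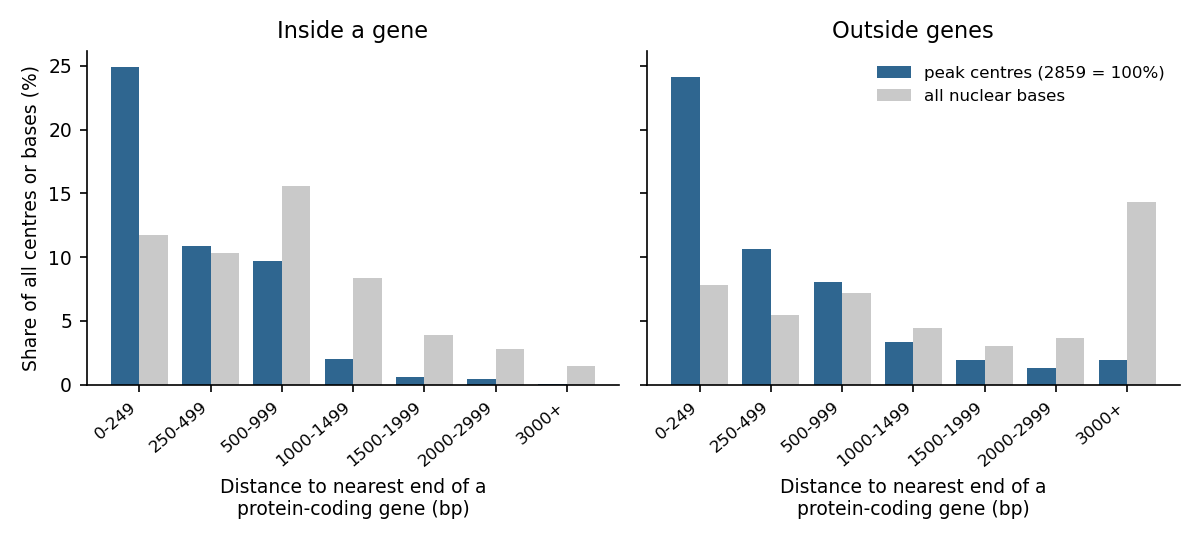
Share of the 2859 peak centres (blue) and of all nuclear bases (grey) by distance to the nearest end of a protein-coding gene, inside genes (left) and outside them (right). Centres exceed bases in the 250 bp on each side of an end, at 24.9% inside and 24.1% outside, and fall below them from 500 bp inward and 1000 bp outward.

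Genes with a peak were somewhat longer (median 2259 bp, against 2078 bp for all protein-coding genes). They also stood closer to their neighbours, with a median of 1174 bp for the larger of the gaps on both sides, against 1442 bp. The share with a peak was 20.8% in the 20% of genes with the smallest gaps and 12.4% in the 20% with the largest. By length it was 12.8% in the shortest 20% of genes and 19.8% in the longest 20%. By the rule used, a peak between close neighbours counts for each of them.

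The 30 highest-scoring peaks outside the doubtful windows with a gene within 1 kb included several at regulators of stress and hormone responses. The peak at MYBR1 (MYB44), an R2R3 MYB factor of ABA and stress responses, scored 776 and spanned chromosome 5, 26850946 to 26857791 (TAIR10). It was 6846 bp wide and covered the whole gene, with 3 other genes in reach. The peak beside NTL8, a membrane-bound NAC factor that acts in germination under salt, scored 747 and was 1883 bp wide (chromosome 2, 11681104 to 11682986). Its centre was 74 bp outside the gene, which makes it one of the narrower strong peaks.

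A peak with the auxin response factor gene ARF2 in reach had a score of 753 (chromosome 5, 24904626 to 24911147), although AT5G61997 was nearer to its centre. OXS2, which encodes a CCCH zinc-finger protein of oxidative stress tolerance, was the sole gene at a peak of 666 (chromosome 2, 17488904 to 17490852). The CCCH zinc-finger genes CZF1 and SZF1, known from salt stress, had peaks of 457 and 432. Each of their peaks was wider than 5 kb, at 7462 bp and 5392 bp, and the centres lay inside the genes. RD19, a drought-induced cysteine protease gene, had 437, shared with the vacuolar proton pump gene VHA-A3. The TCP-family gene TCP9 had 466, and AT3G12320, a clock-regulated gene also known as LNK3, had 444.

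Other peaks of the 30 lay by metabolic genes or by genes of unstated function. The purine permease gene ATPUP13 had 1248 (chromosome 4, 5563793 to 5566205), and the cellulose synthase-like gene ATCSLC08 had 842. AT1G65349 and AT3G20362 had the ceiling of 3100, in peaks of 1467 and 2481 bp. The centre of the AT1G65349 peak lay 666 bp outside that gene, in another protein-coding gene. AT2G01023 (1853) lay at the very start of chromosome 2 (9194 to 10837). The highest peak in no reach of any protein-coding gene, outside the same windows, scored 2780 (chromosome 4, 5267132 to 5268998). The last of the 30 was AT5G66650 (406).

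The 5 widest peaks outside the doubtful windows were between 7462 and 9346 bp. The genes with an end nearest their centres were AT3G60920 (9346 bp, score 807), GID1B (7826 bp, 450), AOX1A (7774 bp, 845), AT3G07350 (7710 bp, 306) and CZF1 (7462 bp, 457). The centre was 3981 bp outside AT3G60920 and 1037 bp outside AOX1A, and inside the other genes named. GID1B encodes a gibberellin receptor and AOX1A the main stress-induced alternative oxidase of mitochondria. No gene was touched by more than 3 separate peaks. Of the 9 genes with 3, those with the highest scores were AT1G64140 (301), AT3G62270 (267), AT2G45910 (177), the touch-induced calmodulin-like gene TCH3 (109) and the mitochondrial carrier gene mSFC1 (105).

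Some genes lay wholly under peaks. Of the 4880 genes with a peak, 468 (9.59%) were covered from end to end, and their median length was 1048 bp. Coverage of the whole gene occurred in 420 of 2005 genes with a peak that were up to 2 kb long (20.9%) and in 48 of 2875 longer ones (1.67%). Among the longer genes the 48 had a median score of 282, against 60.05 for those covered in part. Gene length and peak width both enter this count, so it was used as a description.

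The gene of ANAC060 itself, NAC060 in the annotation, was covered to 95.8% by a peak of 171 (chromosome 3, 15972782 to 15975549), which ranked 283 of 2859. DNA of the transgene can map to that gene, and the input came from plants without it, so binding to the gene and DNA of the transgene cannot be told apart. ABI5, a bZIP factor through which ABA acts in seeds and seedlings, had a weak peak of 32.27 (rank 2658) over 23.5% of the gene.

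Gene classes were described next, from 62 lists built from annotated names. They held 2207 distinct genes, of which 496 (22.5%) had a peak, against 17.8% of all protein-coding genes. By broad role the share was 35.1% for protein turnover (39 of 111 genes), 30.1% for light and clock (25 of 83) and 29.3% for hormones (70 of 239). It was 24.6% for kinases and calcium, 23.2% for housekeeping (16 of 69), 21.9% for transcription factors and 18.8% for sugar and energy. Transport had 18.5%, metabolism and detoxification 17.9% and the cell wall 14.6%. At a score of 100 or more, transcription factors (8.90%), hormones (8.79%) and light and clock (8.43%) had the highest shares, against 4.89% of all genes. The class shares carry no test, since the members were grouped with earlier results of these data known.

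**Figure D4:**
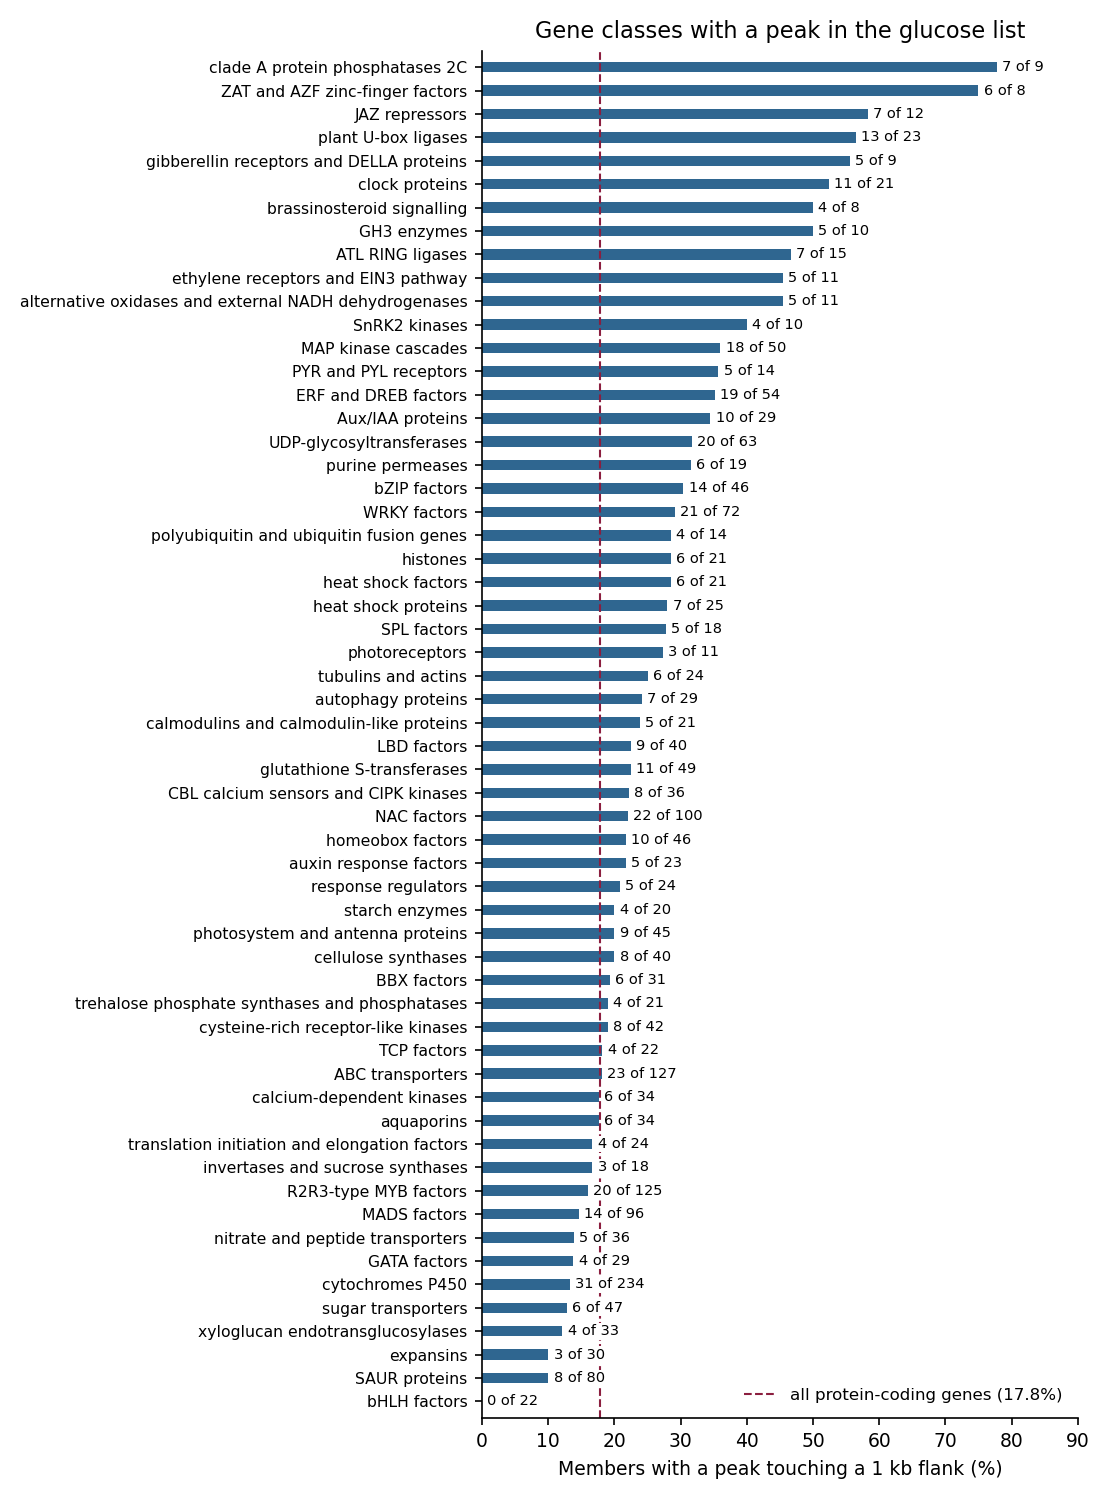
Share of members with a peak in each class of at least 8 genes, with the counts beside each bar and the share of all protein-coding genes (17.8%) as a dashed line. Clade A protein phosphatases 2C stand highest at 7 of 9 and bHLH-named genes lowest at 0 of 22. The list labelled as external NADH dehydrogenases also holds NDA1 and NDA2, which are not external.

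Among hormone genes, all 3 steps of the ABA module had peaks, the phosphatases in the highest share. Of the 9 clade A protein phosphatase 2C genes, 7 had a peak (77.8%), and 4 of them had a score above 100. HAI3 had 176 (chromosome 2, 12607760 to 12609340), HAI2 170 (chromosome 1, 2279111 to 2281900), ABI1 164 (chromosome 4, 13222779 to 13225115) and PP2CA 163 (chromosome 3, 3584939 to 3586862). The other members were ABI2 (87.29), HAI1 (63.65) and HAB2 (59.97), while HAB1 and AHG1 had none. All 7 highest-scoring centres lay outside the phosphatase genes, at 50 bp from PP2CA, 125 bp from HAI3 and up to 1606 bp from HAI1.

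The other steps of the module had weaker peaks. Of the 14 PYR and PYL receptor genes 5 had a peak (35.7%), none with a score of 100. They were PYL5 (90.60), PYL13 (69.73), PYL4 (46.67), PYL7 (40.92) and PYR1 (33.88). Of the 10 SnRK2 kinase genes 4 had one (40%): SNRK2.7 (118.91), SNRK2.3 (67.24), OST1 (61.47) and SNRK2.4 (44.35). OST1 acts in stomatal closure, and with SNRK2.3 it belongs to the ABA-activated kinases. None of the phosphatase genes lies within 2 Mb of a chromosome end, whereas 3 of the 14 receptor genes and 4 of the 10 kinase genes do (21.4% and 40%, against 20.4% of all genes). With such genes left out, the share with a peak was 27.3% of 11 receptor genes and 33.3% of 6 kinase genes, against 15.3% of all genes so left.

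Repressors of jasmonate and gibberellin signalling were also among the classes with the highest shares. Of the 12 JAZ genes, whose products block jasmonate-responsive factors until the hormone marks them for degradation, 7 had a peak (58.3%). JAZ1 had 410 in a peak of 5277 bp that covered the gene (chromosome 1, 6619672 to 6624948). JAZ3 had 143, JAZ9 (TIFY7) 124 and JAZ6 84.01, with the centre 2930 bp outside JAZ9 and 1019 bp outside JAZ6. JAZ7, JAZ8 and JAZ10 had none. No JAZ gene lies within 2 Mb of a chromosome end. In the gibberellin list 5 of 9 genes had a peak, and they were the receptor gene GID1B (450) and 4 genes of DELLA growth repressors, RGL2 (136), GAI (98.98), RGL1 (65.49) and RGA, named RGA1 in the annotation (48.60). In this list 4 of the 9 genes lie within 2 Mb of a chromosome end, and with such genes left out the share was 40% of 5, against 15.3% of all genes so left. With the peak centre required in the flank, 1 of the 9 was counted.

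Receptors and early steps of other hormone pathways followed. Brassinosteroid signalling had 4 of 8 genes, with BIN2 among those without. They were the receptor kinase genes BRI1 (141) and BAK1 (166) and the transcription factor genes BES1 (164) and BZR1 (57.02). The peak counted for BRI1 covered none of that gene, with its centre 1454 bp outside it. In ethylene signalling 5 of 11 genes had a peak. EBF1, whose F-box protein marks EIN3 for degradation, had 534 (chromosome 2, 10846438 to 10849649), and the kinase gene CTR1 (89.32), the membrane protein gene EIN2 (52.30) and the receptor genes ERS1 (42.45) and ERS2 (36.74) had less. EIN3 and ETR1 had none.

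In auxin responses, the early repressors and the conjugating enzymes had higher shares than the SAUR genes. Of 29 Aux/IAA genes 10 had a peak (34.5%), led by IAA16 (127) and IAA9 (125), and of 10 GH3 genes, whose enzymes join hormones to amino acids, 5 had one, led by GH3.5 (WES1, 106). The list of 80 genes named as SAUR, small auxin-induced growth genes, had a peak in 8 cases (10.0%), below the 17.8% of all genes. The exact binomial interval of that share, 4.42% to 18.8%, included 17.8%. The highest score, 203, was at AT5G01830, which the annotation names SAUR21 but which is not a SAUR family gene. The 8 thus include a namesake, and AT1G72430 (121) came next. Cytokinin response regulators had 5 of 24, none with a score of 100.

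**Figure D5:**
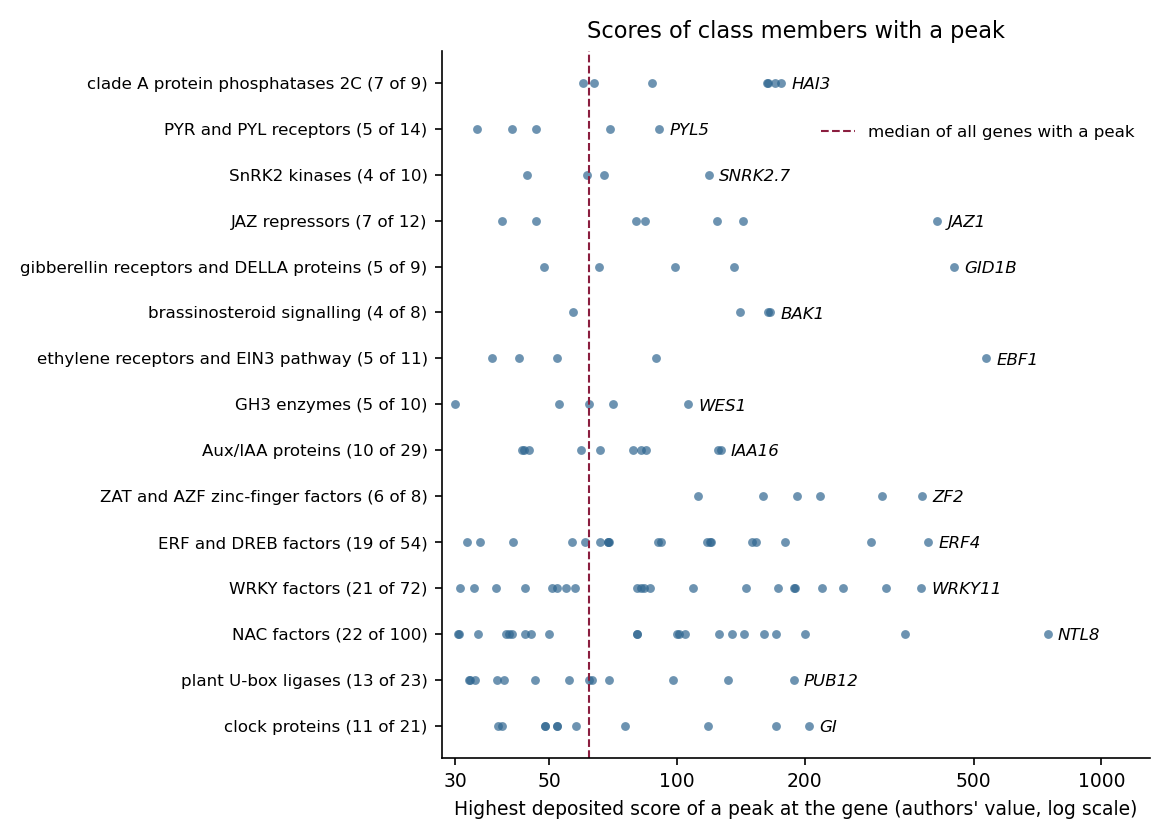
Highest deposited score at each class member that had a peak (log scale), 1 dot a gene, for 15 classes with the member of the highest score named. The dashed line is the median over all genes with a peak, 62.21, and all 6 ZAT and AZF genes lie above 100.

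Among factor families, the ZAT and AZF list had the highest median score (204.5). Of 8 C2H2 zinc-finger genes of the ZAT and AZF group, which are induced early by cold, salt and oxidative stress, 6 had a peak and all 6 had a score above 100. They were AZF2 (ZF2, 378, chromosome 3, 6801125 to 6806159), AZF1 (ZF1, 304, chromosome 5, 26917483 to 26922281), ZAT12 (RHL41, 217), ZAT10 (STZ, 192), ZAT6 (159) and ZAT11 (112). Every one of these 6 genes was covered from end to end, in contrast to 20.9% of all genes with a peak that were up to 2 kb long. Their median length was 1304 bp. With the peak centre required in the flank, 1 of the 8 genes was counted.

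The ethylene response factor and DREB list had a peak at 19 of 54 genes (35.2%), and 8 of these had a score of 100 or more. ERF4, a repressor, had 391 (chromosome 3, 5120774 to 5126648), RAP2.4 286, ERF5 180 and ERF104 154, and each of the 4 genes was wholly covered. The neighbouring cold-response genes CBF2 and CBF3 (DREB1A) shared 1 peak (68.71), which covered none of CBF2 and 51.0% of CBF3. CBF1 (120) and CBF4 (150) had higher scores. WRKY factors had 21 of 72 genes (29.2%), 9 with a score of 100 or more, led by WRKY11 (376), WRKY45 (311), WRKY6 (246) and WRKY28 (219). WRKY11 and its close relative WRKY17 (189) are known as negative regulators of defence.

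Among the NAC genes, the family of ANAC060, 22 of 100 had a peak (22.0%), and 10 of these had a score of 100 or more (10.0% of members, against 4.89% of all genes). They included NTL8 (747), NAC083 (344), NAC032 (200) and NAC060 itself (171). ATAF1 (144), a stress-responsive NAC factor gene close to NAC032 in sequence, was also present. Homeobox genes, with 10 of 46, were led by HB16 (297), HB6 (170), HB-12 (133) and HB-1 (127). Of the 46 bZIP genes 14 had a peak (30.4%), led by AT2G12900 (349) and BZIP53 (148). The peak counted for AT2G12900 lay in a gene-poor window and covered none of that gene, with its centre 1001 bp outside it.

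Other families of factors had shares above or below the background, but apart from the bHLH-named genes their exact binomial intervals all included it. The interval was 11.3% to 52.2% for heat shock factor genes and 8.21% to 23.3% for MADS genes. Heat shock factor genes had 6 of 21 (28.6%), the list of genes named as SPL 5 of 18 (27.8%) and LBD genes 9 of 40 (22.5%). The SPL count includes AT1G54150 (32.11), a namesake of the SPL factor gene SPL2 (AT5G43270), which had no peak. ZCF61, also in that list and without a peak, is not an SPL factor gene either. R2R3-type MYB genes had 20 of 125 (16%), with MYB44 (776) far above MYB77 (252), MYB73 (170) and MYB4 (144). MADS genes had 14 of 96 (14.6%), GATA genes 4 of 29 (13.8%) and genes named as bHLH factors 0 of 22, a part of that large family. The phytochrome-interacting factors, bHLH proteins in a list of their own, had 2 of 6, PIL6 (57.28) and PIF3 (32.51). The highest MADS scores were those of AGL67 (950) and AGL28 (459), with centres 3109 bp and 1462 bp outside these genes. SVP had 239, and FLC, the repressor of flowering, had 67.

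MAP kinase cascades and ubiquitin ligases were also listed often, other kinase lists less so. Of 50 genes of MAP kinase cascades 18 had a peak (36.0%). MPK13 (278), MAPKKK19 (277), MAPKKK14 (245) and MPK3 (166), a kinase of defence and stress signalling, were at the top. The peak counted for MAPKKK19 covered none of that gene, with its centre 2786 bp outside it. Calcium-dependent kinases had 6 of 34 (17.6%), cysteine-rich receptor-like kinases 8 of 42 (19.0%) and CBL sensors with CIPK kinases 8 of 36 (22.2%). Plant U-box ligases had 13 of 23 (56.5%). They were led by PUB12 (188), which acts in the turnover of an immune receptor, PUB19 (132), PUB9 (97.85) and PUB18 (69.04), and included PUB22, PUB23 and PUB24, a trio of immune repressors, at 33.36 to 63.15. ATL RING ligases had 7 of 15, led by ATL63 (164) and ATL5 (157). The peak counted for ATL63 covered 3.75% of that gene, with its centre 2525 bp outside it. Scores at the U-box genes were mostly low, and 2 of the 23 reached 100 (8.70%).

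The circadian clock was represented at many of its parts. Of 21 clock genes 11 had a peak (52.4%), led by GI (204, chromosome 1, 8060090 to 8062478), LHY (171, chromosome 1, 37269 to 38905), CCA1 (119, chromosome 2, 19244516 to 19246182) and LUX (PCL1, 75.65). LHY and CCA1 are the morning factors of the clock, GI a large clock protein of the evening and LUX a part of the evening complex. The others were PRR7, FKF1, LNK1 (AT5G64170), PRR9, ELF4, ELF3 and PRR5, with scores of 37.85 to 57.98, and TOC1 and ZTL had none. Of these 21 genes 6 lie within 2 Mb of a chromosome end (28.6%, against 20.4% of all genes), and without them the share was 40% of 15. Centres were outside the gene for 10 of the 11, by 20 to 467 bp except at PRR5 (1429 bp).

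Genes of sugar metabolism and sensing mostly stood near or below the background, and the exact binomial interval of each list included it. Sugar transporter genes had 6 of 47 (12.8%), led by ERD6 (130) and SUT2 (94.81). Invertases and sucrose synthases had 3 of 18 (16.7%): the cell-wall invertase gene CWINV1 (ATBFRUCT1, 209), FRUCT5 (149) and SUS6 (39.31). Trehalose phosphate synthases and phosphatases had 4 of 21 (19.0%), led by TPPG (295), and starch enzymes 4 of 20 (20.0%), led by SEX4 (164). The 6 genes of the SnRK1 energy-sensing kinase, KIN10 and KIN11 among them, had none. Of the 5 hexokinase genes, the glucose sensor gene HXK1 (46.92) and HKL1 (88.70) were counted, each through a peak that covered none of the gene. The centres lay 1364 bp outside HXK1 and 1819 bp outside HKL1. With the peak centre required in the flank, neither was counted. Without a replicate, a missing peak says only that nothing was called there.

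In energy metabolism, 5 of 11 genes of alternative oxidases and NADH dehydrogenases of the NDA and NDB types had a peak. These enzymes bypass the main respiratory chain, and NDA1 and NDA2 had no peak. AOX1A and AOX1B were counted through the same peak (845, chromosome 3, 7905897 to 7913670), which covered AOX1A entirely and AOX1B not at all. The others were NDB1 (304, with its centre 2518 bp from the gene), AOX2 (55.30) and NDB2 (38.34). Without peaks wider than 5 kb 3 of the 11 remained in the count.

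Detoxification and transport split by family. UDP-glycosyltransferases had 20 of 63 genes (31.7%) through 17 peaks, as tandem copies share peaks: UGT71C4 and UGT71C5 had the same score of 163. Purine permeases had 6 of 19, led by ATPUP13 (1248), with PUP10 and PUP7 counted through a common peak (115) that reached only the flank of PUP7. Heat shock proteins had 7 of 25, and 5 of these had a score of 100 or more (20.0%), with Hsp89.1 (192), HSC70-1 and Hsp70-2 (186 each, through 1 peak) and SHD (164) at the top. Glutathione S-transferases (11 of 49, 22.4%) and ABC transporters (23 of 127, 18.1%) were closer to the background. Cytochrome P450 genes (31 of 234, 13.2%) were below it, with an exact binomial interval of 9.18% to 18.3% that included it.

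Cell wall lists had shares above or below the background, but their exact binomial intervals all included it. Photosynthesis genes were near the background. Expansin genes, whose proteins loosen walls, had 3 of 30 (10.0%), led by EXPB3 (304), and xyloglucan endotransglucosylase genes 4 of 33 (12.1%). The highest peak of EXPB3 is the one also counted for NDB1, with its centre 1276 bp outside EXPB3. Cellulose synthases and their relatives had 8 of 40 (20%), led by ATCSLC08 (842). Photosystem and antenna genes had 9 of 45 (20.0%), led by LHCB4.1 (134) and LHCB4.3 (129). Of highly expressed housekeeping genes, histones had 6 of 21 (28.6%), tubulins and actins 6 of 24 (25%) and translation factors 4 of 24 (16.7%). Together the housekeeping lists had 16 of 69 genes with a peak (23.2%) and 1 with a score of 100 or more (1.45%).

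Outside protein-coding genes, shares were counted from peaks over the gene or its 1 kb flanks, which gave 18.1% for protein-coding genes. Long non-coding RNA genes had 506 of 3480 (14.5%), tRNA genes 94 of 625 (15%), snoRNA genes 41 of 287 (14.3%) and microRNA genes 35 of 326 (10.7%). Without the doubtful windows tRNA genes had 71 of 598 (11.9%). Pseudogenes had the lowest share, with 102 of 3917 (2.60%), or 64 of 1547 (4.14%) without those windows. All 4 annotated rRNA genes had a peak (median score 1052), and 2 of them lie in those windows.

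The microRNA genes with a peak, chosen for naming after their values were seen, included MIR170 (195), MIR159a (171), which acts on MYB factors, and MIR408 (93.78). All of MIR398a (39.38), MIR398b (32.76) and MIR398c (95.05) had a peak. The products of MIR398 and MIR408 act on messenger RNAs of copper proteins. MIR827 (75.89), a microRNA gene of phosphate starvation, was listed too.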

How the data were processed

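The submitters' processing notes name BWA 0.7.15-r1140, FastQC and the TAIR10 build. MACS called the peaks from 1 precipitate against 1 input, with no shift model, no local background and a p threshold of 0.001, per the file headers. The MACS version and which seedlings received the 6% sorbitol that the protocol also names are not given in the sources used here. The values are the authors' deposited scores and served to rank and select peaks of this list. Without a local background, uneven copy number or open chromatin can yield peaks.

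Positions were read as 1-based. Genes came from the RefSeq table of TAIR10.1, which was used for names and neighbourhood alone and gives no strand, exon or sequence. Centres moved by 5 kb lay in gene bodies in 66.6% and 67.2% of cases, against 48.6% as listed, a check that both share positions. Calls used Python 3.11.15, numpy 2.4.6, pandas 2.3.3 and matplotlib 3.10.9. scipy 1.17.1 gave the exact binomial intervals at 95%. On simulated data 120 of 120 planted flank peaks were assigned to their gene.

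Named genes had an end nearest the centres of the 30 highest peaks outside gene-poor windows and chromosome 2 from 3 to 4 Mb. Up to 4 members per class, the 5 genes with the most peaks and the 5 widest peaks were also named. Further members of classes, the peak with no gene, ARF2, VHA-A3 and the microRNA genes were named after their values were seen. Members and lists were chosen with earlier results of these data known. Classes match annotated symbols or synonyms, and 7 listed symbols matched no gene. Removed were 46 matches to other genes of the same name (in the ZAT list a zinc transporter with no peak in its flanks, after values were seen). Namesakes remained in at least the SAUR list (AT5G01830) and the SPL list (AT1G54150 and ZCF61). Exons, strand and motifs were not analysed here.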

Additional observations from a re-analysis of the deposited data

How the results depend on the processing

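Most values moved with the score and the overlap rule. The count of genes with a peak, 4880, was 2522 with the peak centre required in the flank, 2691 for peaks at or above the median score and 1342 from a score of 100 up. Other settings gave 3345 to 6045 genes, the lowest without genes within 2 Mb of a chromosome end. The gene-body share of centres, 48.6%, was 46.4% at or above the median score and 46.0% from a score of 100 up. The flank share, 42.8%, was 34.7% with flanks of 500 bp, 48.1% with 2 kb and 39.6% from a score of 100 up, and the share elsewhere, 7.0%, was 14.3%, 2.2% and 10.2% there.

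Of the 15 classes with a share at 2 times that of all genes or more, 12 were above it in each of 11 other settings. Among these 12, the ZAT and AZF list (4.22 times) and the gibberellin list (3.12 times) came to 1.36 and 1.21 times with the peak centre in the flank. The exceptions were the PYR and PYL receptors and the hexokinases, with 0 at a score of 100 or more, and the alternative oxidase list, at 0.99 times with centres in the flank. The hexokinases also had 0 with centres in the flank. Homeobox and heat shock factors were under the background without genes within 2 Mb of a chromosome end, at 0.84 and 0.77 times. Exclusion of chromosome ends and of wide peaks was chosen after seeing the data. No paired analysis was possible because each side is 1 library. Promoter windows and motif shares were not run. Depth is unknown, so an uncalled gene is not an unbound one.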
